A study of Mus musculus with 11 samples.

Results

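The choroid plexus (CP) of control mice was described on its own, from the 3 control pools among the 11 pools of the series. The pools were taken by their label alone, and no disease phase is described or compared below. Arrays of the disease phases enter only through the normalization, which was run over all 11 arrays. Of 15946 genes on the array, 6679 gave a signal above background in all 3 control pools, and these are the genes whose levels and spread are described. The study measured the CP transcriptome in a relapsing mouse model of multiple sclerosis, experimental autoimmune encephalomyelitis (EAE), on Illumina MouseRef-8 bead arrays. Each control pool held the CP of 3 female SJL mice of 6 to 8 weeks, an inbred strain used for this model. The labels give phosphate buffered saline (PBS) as their injection. The methods of the study state that this PBS was emulsified in complete Freund's adjuvant and that pertussis toxin was given on the schedule of the EAE mice, so these mice lacked the myelin peptide but had received adjuvant and toxin. They were killed together with the onset mice, after perfusion with saline. The values therefore describe adjuvant- and toxin-treated CP, and naive CP is not analysed here. The 3 pools came from 1 experiment, and in the spread between them, variation between mice and variation between arrays cannot be told apart.

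The CP is a frond of tissue in each brain ventricle, in which a single layer of epithelial cells covers a stroma with leaky, fenestrated capillaries, fibroblasts and resident macrophages. The epithelium pumps ions and water into the ventricle to make cerebrospinal fluid (CSF). It also moves vitamins, hormones and metals between blood and CSF, and secretes carrier proteins and growth factors. Its cells carry tufts of cilia, and tight junctions between them close the blood-CSF barrier.

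A probe was called above background where its detection p-value, taken against the negative control beads of the same array, was under 0.01. By that rule 7449, 6833 and 7240 genes were above background in control pools 1, 2 and 3, and 6679 genes, which is 41.9% of those on the array, were above background in all of them. A further 875 genes were above background in 1 or 2 pools, and 8392 in none. The median raw signal was 326, 378 and 257 units in pools 1, 2 and 3, and the highest raw signal was nearly the same in each, between 72276 and 72572 units. In all, 56, 99 and 19 probes of the 3 arrays lay within 95 to 100% of that ceiling, where signals no longer give an order. Levels below are log2 signals after quantile normalization, which gives the brightest probes nearly one value on every array. A signal depends on the probe as well as on the RNA, so the order of genes is an order of signals and not of transcript amounts. Eef1a1, a translation factor of every cell, had levels of 9.30, 9.12 and 9.53 and was above background in only 2 pools. In RNA from whole tissue, fewer cells of a type and less RNA per cell cannot be told apart.

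Ttr, Atp1b2 and B2m, and then a list of CP epithelium genes, are described first. The list was chosen with earlier results of these data known, so it is no independent check of the tissue label. Ttr, which encodes transthyretin, the thyroid hormone carrier that CP epithelium secretes, had levels of 16.09, 15.84 and 16.14 in pools 1, 2 and 3, and its raw signals of 71463, 70170 and 71524 units lay at the ceiling in each. Atp1b2, a beta subunit of the sodium pump, had levels of 13.50, 13.53 and 13.46. B2m, the light chain of MHC class I, had levels of 15.40, 15.16 and 15.67. B2m was lowest in pool 2, Atp1b2 differed by 0.07 between the highest and lowest pool, and the values of Ttr, at the ceiling, have no order. All 24 of the CP epithelium genes on the array were above background in every pool, against 41.9% of all genes. Their median level was 15.45, which is at the 98.1 percentile of genes above background. Among them were Folr1, the folate receptor of the epithelium, Kl, which encodes klotho, Sostdc1, a secreted inhibitor of Bmp and Wnt signaling, and Otx2, a transcription factor needed for CP to form. Their mean levels were 16.12 for Folr1, 16.10 for Kl, 16.12 for Sostdc1 and 15.34 for Otx2. The lowest member was Htr2c, a serotonin receptor, at 11.81, 12.57 and 11.30 in pools 1, 2 and 3. Its range, the highest minus the lowest pool, was 1.27, and it was the only one of the 24 with a range over 1. Prlr and Enpp2, also listed as markers, are not analysed here. The sex label was checked with 6 Y-linked genes, of which none was above background in any pool.

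**Figure D1:**
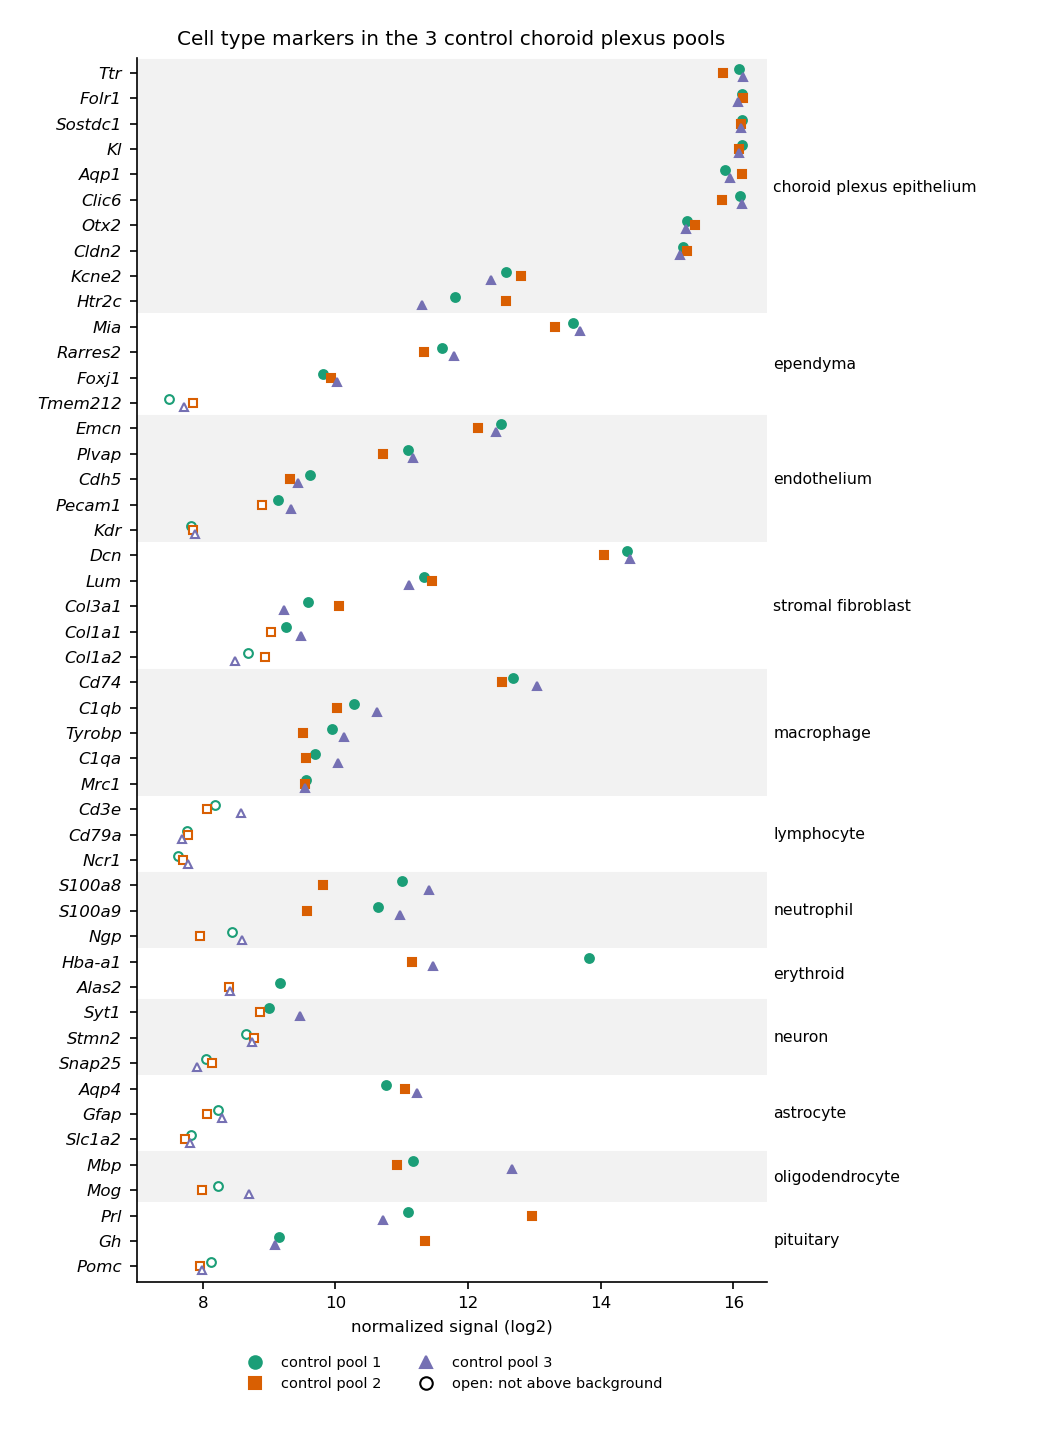
Normalized log2 signal (x axis) of marker genes (y axis, grouped by cell type) in the 3 control pools, with 1 symbol per pool; filled symbols are above background (detection p under 0.01) and open symbols are not. CP epithelium markers lie between 11.30 and 16.15 in all pools, while the lymphocyte markers Cd3e, Cd79a and Ncr1 are open in every pool.

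The 30 genes with the highest signal had mean levels from 16.06 to 16.12. All 30 were near the ceiling in at least 2 pools, 8 of them in 3, so the order within the 30 carries no information. The first was Scd2, a fatty acid desaturase. The epithelial genes Folr1, Sostdc1, Kl and Lbp, which encodes the lipopolysaccharide binding protein, were among them. So were the secreted proteins clusterin (Clu), cystatin C (Cst3), prostaglandin D synthase (Ptgds) and prosaposin (Psap), and the sodium pump subunit Atp1b1. Subunits of the respiratory chain and ATP synthase gave 7 of the 30 (Atp5j2, Atp5b, Ndufa13, Cox8a, Cox6c, Atp5g1 and Cox4i1) and ribosomal proteins gave 6 (Rplp1, Rps29, Rpl38, Rps20, Rpl23 and Rpl41). The others were Rnaset2b, Itm2b, Cd81, Chchd10, Tubb4b, Gapdh and Hspa8. Rnaset2b has a near-identical copy, so its signal may include that gene's RNA. The 30 brightest genes of each pool shared 6 genes, whereas the 100 brightest of each pool shared 83. Pool 1 and pool 3 shared 26 of their 30 brightest, and each shared fewer than 10 with pool 2. With 56, 99 and 19 probes near the ceiling in pools 1, 2 and 3, these signals do not settle which genes come first. Of the 100 brightest, pools 1 and 3 shared 95, pools 1 and 2 shared 86 and pools 2 and 3 shared 84. A further 6 of the 30 brightest probes have no gene in the annotation used and are known by number only, such as probe 5670451, with a mean level of 16.12.

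Among the 100 genes with the highest signal, 34 encoded ribosomal proteins or subunits of oxidative phosphorylation, which together made up 135 of the 6679 genes above background, or 2.02%. Of the ribosomal protein genes, 68 of 74 were above background in all pools, or 91.9% against 41.9% of all genes. Their median level was 15.34. Of the oxidative phosphorylation genes 67 of 78 were above background, or 85.9%, with a median of 14.46. The proteasome, which breaks down tagged proteins, had 30 of 36 genes above background, or 83.3%, with a median of 13.15. The vacuolar proton pump, which acidifies lysosomes and secretory vesicles, had 15 of 23, or 65.2%, with a median of 13.34. All 4 medians lay above the 80th percentile of genes above background.

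Of 27 genes for ion and water transport, 15 were above background in every pool, or 55.6% against 41.9% of all genes. Their median level was 13.51, and 5 of the 15 lay below the median of all genes above background, which was 11.34. Aqp1, the water channel of the apical membrane, had levels of 15.88, 16.14 and 15.95 in pools 1, 2 and 3. Slc12a2, the sodium-potassium-chloride cotransporter NKCC1, had levels of 15.90, 15.61 and 15.93. Slc4a2, a chloride-bicarbonate exchanger, had levels of 15.94, 16.12 and 15.98. The ranges of these 3 genes were 0.26, 0.32 and 0.18, and Aqp1 and Slc4a2 were near the ceiling in pool 2. The carbonic anhydrases Car12, Car2 and Car14, which supply bicarbonate, had mean levels of 16.05, 14.01 and 13.51, whereas Car4 was above background in only 1 pool. Slc4a10, a bicarbonate transporter known in CP, was not above background in any pool, with a mean of 7.94, nor was the cystic fibrosis channel Cftr, with 7.56.

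Of 28 genes for nutrient and hormone transport, 19 were above background in every pool, or 67.9% against 41.9% of all genes. Slc22a17, a receptor for lipocalin 2, had levels of 15.77, 15.79 and 15.88. Slco1c1, which carries thyroxine, had a mean level of 15.53 ± 0.13 (SD, n = 3), and Slc31a1, the copper importer, 15.25 ± 0.12. The vitamin C carrier Slc23a2 had a mean of 14.09, the vitamin A receptor Stra6 13.49 and the glucose carrier Slc2a1 13.45. At the lower end were Slc22a8, an organic anion carrier, with a mean of 9.81, and the iron exporter Slc40a1, with 9.36. Over all 325 solute carrier genes on the array, 139 were above background in every pool, which is 42.8%, against 41.9% of all genes.

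Of 36 genes encoding proteins found in CSF, 31 were above background in every pool, or 86.1% against 41.9% of all genes. Among the 100 brightest genes were 12 of them. Apoe, the lipid carrier apolipoprotein E, had levels of 15.67, 16.14 and 15.69 in pools 1, 2 and 3. Ecrg4, which encodes the secreted peptide augurin, had levels of 16.11, 15.84 and 16.14, with raw signals near the ceiling in all pools. Insulin-like growth factor genes were represented by Igf2, at 16.06, 15.87 and 16.14, and by its binding proteins Igfbp2, Igfbp7 and Igfbp5, with means of 15.77, 15.60 and 13.48. Igf2 is an imprinted growth factor that the CP continues to express in the adult. Igf1 had a mean of 9.57 ± 0.10 (SD, n = 3), and Igfbp1, Igfbp3 and Igfbp6 were not above background in any pool. Genes of Bmp, Wnt and other growth factor signaling were above background in 25 of 36 cases, or 69.4%. Among them were the secreted Wnt inhibitor Sfrp1, with a mean of 14.78, and the growth factor Tgfb2, with 14.46. Vegfa, which maintains fenestrated capillaries, had a mean of 14.03.

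Of 26 genes of tight and adherens junctions, 21 were above background in every pool, or 80.8% against 41.9% of all genes. Cldn2, the claudin that lets cations and water pass between epithelial cells, had levels of 15.25, 15.30 and 15.19. Cldn1 had levels of 14.54, 14.28 and 14.53, and Cgnl1, which encodes paracingulin, 14.87, 14.80 and 15.01. The scaffold Tjp1 had a mean of 11.03 and occludin, encoded by Ocln, 11.45. Cdh2, Marveld2 and Cldn19 were not above background in any pool. Jam3, a junction molecule of endothelial and epithelial cells, was the only one of the 21 with a range over 1, at 9.97, 10.56 and 9.49.

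Genes of motile cilia and the axoneme were above background in 31 of 41 cases, or 75.6% against 41.9% of all genes, with a median level of 12.41. Dynlrb2, a light chain of dynein, had levels of 15.01, 14.68 and 14.96 in pools 1, 2 and 3. Rsph1, a radial spoke protein, had levels of 14.67, 14.41 and 14.75, and Tekt1, a tektin of the axoneme, 13.97, 14.06 and 14.02. Foxj1, the transcription factor that switches on motile cilia genes, had a low signal of 9.82, 9.93 and 10.02. Rfx2, a factor of the RFX family that binds the promoters of ciliary genes, had levels between 12.93 and 13.07, and its relative Rfx3 was above background in 2 pools.

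RFX factors bind an inverted repeat known as the X-box. The half-site searched was GTTGCC, on both strands, in the 300 bases that run from 250 before the annotated transcription start to 50 after it. RefSeq promoter sequences of mouse build GRCm38.p6 were matched to 12853 of the 15946 genes. The half-site was in 13 of the 24 cilia genes above background that had a promoter sequence, or 54.2%, against 15.3% of the 5528 genes above background and 13.8% of all 12853. The half-site is shown in capitals (in either orientation) in 4 of the brightest cilia genes that hold it within 80 bases before and 20 after the start. They lie at chr8:116504935-116505034 on the plus strand for Dynlrb2, and on the minus strand at chr4:41507745-41507844 for 1110017D15Rik, a ciliary gene with no common name in the annotation used, at chr11:72361863-72361962 for Tekt1 and at chr5:31291095-31291194 for Ift172, an intraflagellar transport protein.
Dynlrb2: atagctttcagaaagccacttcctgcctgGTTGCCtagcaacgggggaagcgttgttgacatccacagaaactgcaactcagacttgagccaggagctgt
1110017D15Rik: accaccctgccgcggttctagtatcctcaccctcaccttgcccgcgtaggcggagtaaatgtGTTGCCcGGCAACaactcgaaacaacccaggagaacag
Tekt1: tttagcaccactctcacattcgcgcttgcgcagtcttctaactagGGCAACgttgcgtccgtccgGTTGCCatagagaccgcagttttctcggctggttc
Ift172: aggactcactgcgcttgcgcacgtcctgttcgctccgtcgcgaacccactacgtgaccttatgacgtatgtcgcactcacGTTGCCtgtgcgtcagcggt
In 1110017D15Rik and Tekt1 the half-site stood in both orientations. A match is a description of the letters only, and binding was not measured.

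The transcripts of ribosomal protein genes are known to begin with a run of pyrimidines that ties their translation to growth signals. The letters CTTTC were searched on the strand with the sequence of the transcript, from 5 bases before the start to 20 after it. They were in 12 of the 55 ribosomal protein genes above background with a promoter sequence. This was 21.8%, against 3.2% of genes above background and 3.39% of all. The stretch from 30 bases before the start to 20 after it is shown, with every copy of the letters in capitals. It is given for 4 of the brightest genes that hold the letters. They are Rpl38 at chr11:114668550-114668599, Rpl27a at chr7:109519165-109519214 and Rpl28 at chr7:4792935-4792984 on the plus strand, and Rps27 at chr3:90213629-90213678 on the minus strand.
Rpl38: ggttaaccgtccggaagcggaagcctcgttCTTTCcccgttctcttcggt
Rpl27a: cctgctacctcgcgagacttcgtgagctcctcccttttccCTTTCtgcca
Rpl28: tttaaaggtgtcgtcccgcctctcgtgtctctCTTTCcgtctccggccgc
Rps27: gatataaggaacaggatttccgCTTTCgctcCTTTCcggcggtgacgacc
Their mean levels were 16.11 for Rpl38, 15.93 for Rpl27a, 15.74 for Rpl28 and 15.65 for Rps27. In Rps27 the first copy in capitals begins at -8 from the start, outside the searched window, and the other lies within it. In all, 5 motifs were searched, of which the TATA box (TATAAA) is not described. Each was searched in several gene lists and in the 100 brightest genes, and only some of these pairs are described. The letters TAATCC, the core that Otx2 and its relatives bind, were on either strand of the 300 bases in 3 of the 19 CP epithelium genes with a promoter sequence, or 15.8%, against 7.27% of genes above background and 7.61% of all. The letters CCAAT, the core of the site of the factor NF-Y, were in 12 of 15 genes of cholesterol and fatty acid synthesis with a promoter sequence, against 43.3% and 42.5%.

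Other lists held bright genes as well, though not every list was bright as a whole. Genes of cholesterol and fatty acid synthesis were above background in 21 of 31 cases, or 67.7% against 41.9% of all genes. Their median level was 13.02, and the list was led by Scd2 and by Fads1, another desaturase, with a mean of 15.78. Of 33 heat shock and endoplasmic reticulum chaperones, 25 were above background, or 75.8%, with a median of 13.60. Hspa8, the constitutive heat shock protein, had a mean of 16.06. The metallothioneins Mt1 and Mt3, which bind zinc and copper, had means of 15.27 and 15.32. Sgk1, a kinase induced by steroid hormones, had levels of 15.73, 15.18 and 15.75 in pools 1, 2 and 3. Their list, of glucocorticoid targets and metallothioneins, had 17 of 26 genes above background, or 65.4%, with a median of 11.01. Clock genes were above background in 12 of 20 cases, or 60.0% against 41.9% of all genes, with a median of 11.97. Among them were Clock at 12.95 ± 0.10, Per2 at 12.46 ± 0.16 and Dbp at 12.18 ± 0.21 (SD, n = 3). A list of 31 transcription factors that mark the origin of brain ventricle tissue was added after values had been seen. In it 9 were above background, or 29.0% against 41.9% of all genes, with a median of 11.13. These included the roof plate factors Msx1, at 15.06, 15.09 and 14.86, and Zic1, with a mean of 13.98, the forebrain and midbrain factors Otx2 and Otx1, with 15.34 and 12.35, and the hindbrain factors Hoxb4 and Hoxb2, with 9.61 and 9.32. The share of RNA from each ventricle was not measured.

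Signals of the stroma and vessels were lower than those of the epithelium. Of 31 endothelial genes, 19 were above background in every pool, or 61.3% against 41.9% of all genes. The median level of these 19 was 10.28, at the 24.9 percentile. Emcn, which encodes endomucin, had levels of 12.50, 12.15 and 12.42, and Plvap, the diaphragm protein of fenestrated capillaries, 11.09, 10.72 and 11.18. Pecam1 was above background in 2 pools and Kdr, the main receptor for Vegfa, in none. Of 30 stromal fibroblast genes, 19 were above background, or 63.3%, with a median of 10.82. Dcn, which encodes decorin, had levels of 14.40, 14.05 and 14.44, and Pdgfra, the fibroblast receptor for platelet-derived growth factor, 12.69, 12.42 and 12.62, but Col1a2 was above background in none. Among mural cell genes, 5 of 15 were above background, led by Vtn with a mean of 12.11. That share, 33.3%, lay below the 41.9% of all genes.

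Macrophage and monocyte genes were above background in 13 of 30 cases, or 43.3%, near the 41.9% of all genes, with a median level of 10.33. The complement components C1qa, C1qb and C1qc, made by resident macrophages, had means of 9.76, 10.31 and 10.52. The mannose receptor Mrc1, a marker of border-associated macrophages, had levels of 9.56, 9.54 and 9.54. The microglial markers Tmem119 and P2ry12 and the monocyte receptor Ccr2 were not above background in any pool. Among T, B and NK lymphocyte genes 1 of 25 (4.0%) was above background, Thy1, which neurons also express, at 9.28, 9.24 and 9.58. The T cell gene Cd3e had levels of 8.18, 8.06 and 8.57, none of them above background. Of 12 mast cell genes, 4 (33.3%) were above background, Kit, Gata2, Hdc and Srgn, all of which other cells also express. The mast cell proteases Cma1, Cpa3 and Tpsb2 were above background in no pool.

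Among genes of neural cells, 13 of 40 neuron genes (32.5%), 8 of 17 astrocyte genes (47.1%) and 10 of 22 genes of myelinating cells (45.5%) were above background in every pool, against 41.9% of all genes. The highest in the neuron list were Nsg2, an endosomal protein, with a mean of 15.32, and Eno2, a glycolytic enzyme, with 13.22. Snap25, part of the machinery of synaptic release, had levels of 8.05, 8.14 and 7.92 and was above background in no pool. The astrocyte list was led by the amino acid carrier Slc7a10, with 14.93, and the transcription factor Sox9, with 14.41, whereas Gfap and Slc1a2 were above background in no pool. Of 994 olfactory and vomeronasal receptors, which serve as a check on genes that CP has no known use for, 3 were above background in every pool, or 0.302%.

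**Figure D2:**
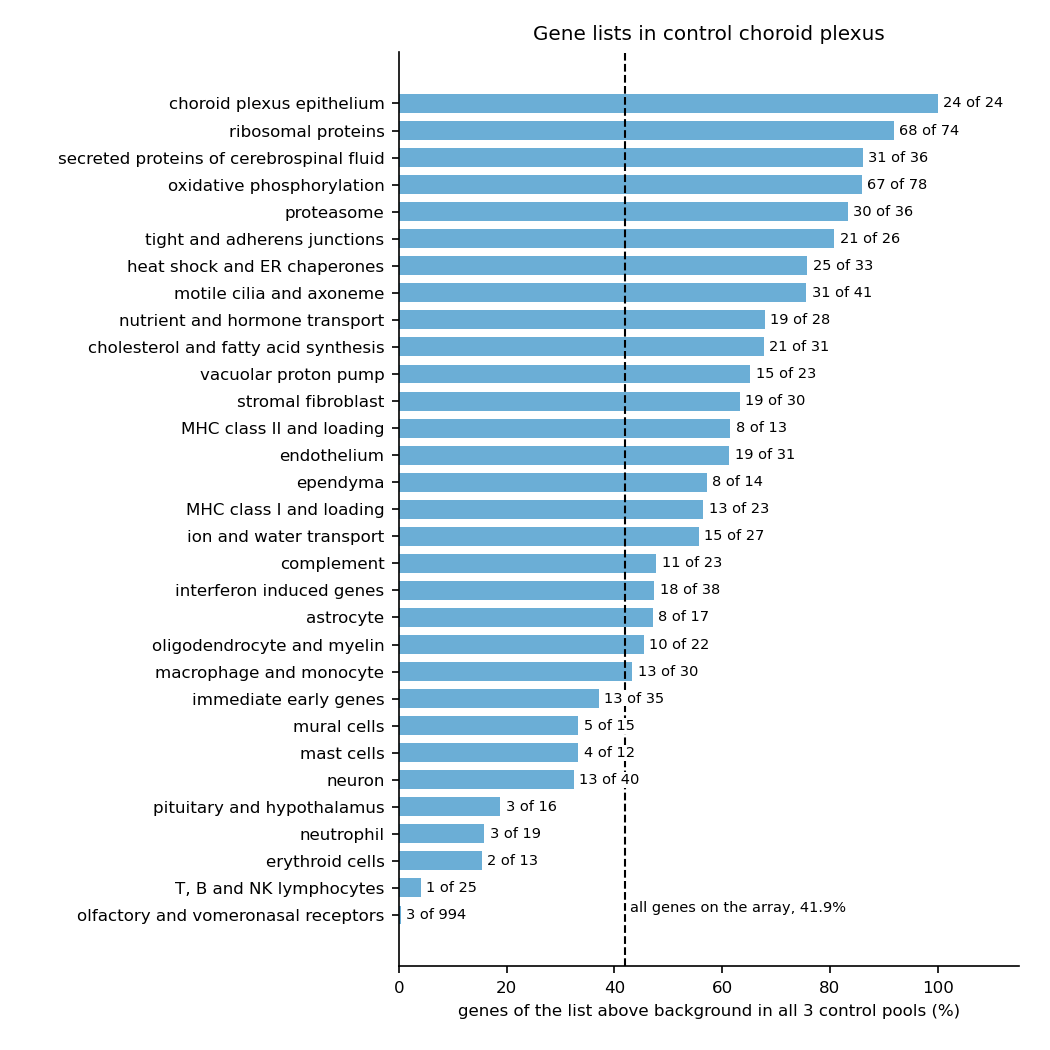
Share of each gene list above background in all 3 control pools (x axis, %; detection p under 0.01), with the number of genes beside each bar; the dashed line is the share of all genes on the array, 41.9%. The CP epithelium list stands at 24 of 24 and the lymphocyte list at 1 of 25.

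Genes of antigen presentation and innate defense were above background in shares from 47.4% for the interferon-induced list to 61.5% for MHC class II, against 41.9% of all genes. Of 13 genes of MHC class II and its peptide loading, 8 were above background in every pool, among them Cd74, the invariant chain, at 12.68, 12.51 and 13.04, and H2-Ab1, the beta chain of I-A, at 12.01, 11.86 and 12.34. H2-Aa and the class II regulator Ciita were not above background in any pool. Of 23 genes of MHC class I, 13 were above background, among them H2-K1 with a mean of 12.29 and the peptide transporter Tap2 with 12.46. The class I genes are a family of near-identical copies, and their probes may share RNA. Of 38 genes that interferons induce, 18 were above background, led by Ifi27 at 15.51 and Ifitm1 at 14.45, while Isg15, Ifit1, Mx1 and Cxcl10 were above background in none. Of 23 complement genes, 11 were above background, led by Clu and by Cd59a, an inhibitor of the lytic complex, with a mean of 14.76. Lbp was near the ceiling in 2 pools, whereas Il6, Tnf and Il1b were above background in none.

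Most genes differed little between the control pools. The median range over the 6679 genes was 0.22, which is 1.16-fold, with quartiles of 0.13 and 0.35. A range over 1, or more than 2-fold, was found in 141 genes, or 2.11%. Across genes, Pearson's r was 0.988 between pools 1 and 2, 0.993 between pools 1 and 3 and 0.975 between pools 2 and 3, over 6679 genes that share their arrays and are not independent replicates. Only 5 genes differed by over 1 between pools 1 and 3 and 20 between pools 1 and 2, but 137 between pools 2 and 3. Without pool 2, 6 genes had a range over 1, and without pool 3, 20 genes did. With a background correction from the detection p-values (limma's neqc), the count was 241 in place of 141.

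The genes with a range over 1 went largely one way. Pool 2 was the highest in 127 of the 141, pool 3 in 11 and pool 1 in 3. In 125 of the 141 pool 2 was highest and pool 3 lowest, and pool 1 lay between the others in 136. Over all 6679 genes pool 2 was highest in 37.8%, pool 3 in 41.8% and pool 1 in 20.3%, and pool 1 lay between in 59.7%. The order from pool 2 through pool 1 to pool 3 was also the order of the median raw signals of the arrays, at 378, 326 and 257 units, and its part in these differences was not tested. The share with a range over 1 was 1.8% among genes with a mean level below 10, 3.32% from 10 to 11, 1.11% from 14 to 15 and 0 above 15, the part of the scale nearest the ceiling.

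**Figure D3:**
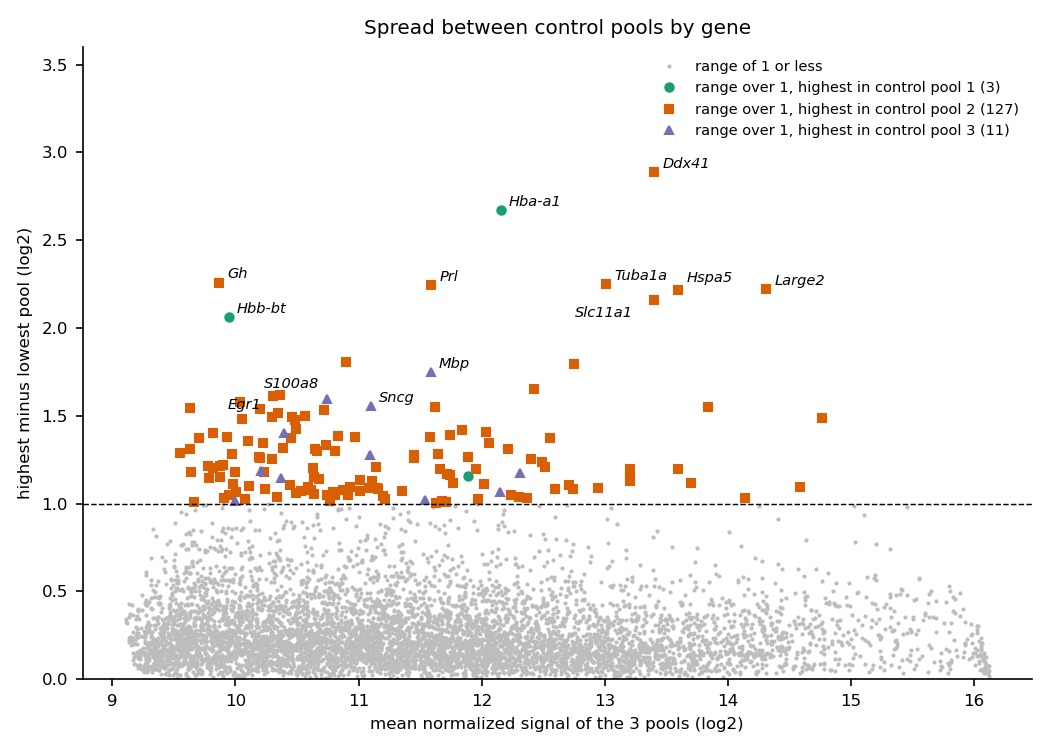
Range between the highest and lowest control pool (y axis, log2) against mean normalized signal (x axis, log2) for the 6679 genes above background in all 3 pools; the dashed line is a range of 1 (2-fold). Of the 141 genes above the line, 127 were highest in pool 2 (squares), 11 in pool 3 (triangles) and 3 in pool 1 (circles).

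The largest range was that of Ddx41, an RNA helicase that senses DNA, at 12.54, 15.27 and 12.39 in pools 1, 2 and 3, a range of 2.89. Tuba1a, an alpha tubulin, had levels of 12.93, 14.17 and 11.92. Hspa5, the chaperone BiP of the endoplasmic reticulum, had levels of 13.40, 14.80 and 12.59. In Ddx41 pools 1 and 3 were alike and pool 2 stood apart, whereas in Tuba1a and Hspa5 the pools were spread in 3 steps. Large2, a glycosyltransferase, had levels of 13.82, 15.67 and 13.45, and Slc11a1, a metal carrier of phagocytes, 12.95, 14.71 and 12.55. Large2 and Slc11a1 repeated the pattern of Ddx41. Their other probes, 1 for Large2 and 2 for Slc11a1, were not above background in any pool, so each pattern rests on 1 probe. Of the 25 chaperones above background 2 had a range over 1, or 8.0%, against 2.11% of all genes. The other was Hspa4l, a heat shock protein named after its value was seen, at 10.57, 11.18 and 10.10, with the same order of pools.

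Of the 67 oxidative phosphorylation genes above background, 7 had a range over 1, or 10.4% against 2.11% of all genes. All 7 were highest in pool 2, as were 127 of all 141 genes with a range over 1. Atp5a1, the alpha subunit of ATP synthase, had levels of 14.75, 15.52 and 14.03, and Ndufc2, a subunit of complex I, 11.58, 12.42 and 10.87. Of 68 ribosomal protein genes, 3 had a range over 1 (Rpl30, Rpl22l1 and Rps6), or 4.41% against 2.11%. These 3 were also highest in pool 2, like most genes with a range over 1. The median of all oxidative phosphorylation genes above background was alike, at 14.42, 14.46 and 14.50 in pools 1, 2 and 3, and the median of their ranges was 0.28. The neurotrophin receptor Ntrk2, at 13.78, 14.64 and 13.09, the immediate early gene Egr1, at 9.96, 11.29 and 9.78, and the progenitor factor Sox2, at 10.38, 11.18 and 9.80, followed the same order. Of 13 immediate early genes above background, Egr1 was the only one with a range over 1, and Fos was above background in no pool.

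Where a gene had several probes, their ranges were compared. In 865 genes, at least 2 probes were above background in all pools, and the brightest and the next brightest were highest in the same pool in 418, or 48.3%. In 13 of these genes the brighter probe had a range over 1. The second probe had a range over 1 in 0 of these 13, with a median of 0.34 and a highest value of 0.98, and the same pool was highest in 6. Over the 865 genes the second probe had a range over 1 in 27, none of them among these 13. In Eif4g2, a translation factor, the brighter probe had levels of 12.38, 13.27 and 11.62, whereas the other probe had 10.44, 10.24 and 10.47. In Cfap69, a ciliary gene, the ranges were 1.07 and 0.98 and pool 2 was highest by both probes. For a gene with 1 probe, a range over 1 is therefore a measurement of that probe, and no second measurement is at hand for Ddx41, Tuba1a, Hspa5, Prl, Gh or Hba-a1.

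Some smaller sets of genes are known as marks of other tissues or cells. The hemoglobin genes were highest in pool 1. Hba-a1, an alpha globin, had levels of 13.83, 11.16 and 11.48 in pools 1, 2 and 3, and Hbb-bt, a beta globin, 11.10, 9.70 and 9.03, so that pool 1 was over 2-fold above both other pools in each. Both have near-identical copies in the genome, and a probe may detect either copy. Alas2, which makes heme in red cells, was above background in pool 1 only, at 9.17, 8.39 and 8.40. Of the 13 genes of the erythroid list, 2 were above background in all pools, or 15.4% against 41.9% of all genes. A further 10 were above background in no pool. Taf15, an RNA-binding protein, was the only other gene with a range over 1 that was highest in pool 1, at 12.62, 11.59 and 11.46.

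Pituitary hormones were highest in pool 2. Prl, prolactin, had levels of 11.09, 12.96 and 10.71, and Gh, growth hormone, 9.14, 11.35 and 9.09, so the ranges were 2.24 and 2.26. Pool 2 was thus over 3-fold above both other pools in each gene. Lhb, the beta chain of luteinizing hormone, had levels of 10.16, 10.41 and 10.09. The other 13 of 16 genes of the pituitary and hypothalamus list, among them Pomc, Cga and Tshb, were above background in no pool. The 3 above background in all pools were 18.8% of the list, against 41.9% of all genes. Both hormones had the order of pool 2, pool 1 and pool 3 that 125 of the 141 genes had, and whether pituitary tissue was collected with a pool was not tested.

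Several genes of neutrophils and the acute phase had low values in pool 2. S100a8 and S100a9, which form calprotectin, had levels of 11.01, 9.81 and 11.41 and of 10.64, 9.57 and 10.97. Lcn2, lipocalin 2, which binds bacterial siderophores, had levels of 10.29, 8.95 and 10.90 and was not above background in pool 2, with a detection p of 0.021. Serpina3n, an inhibitor of serine proteases, had levels of 9.62, 8.27 and 10.53, and Saa3, a serum amyloid, 9.14, 8.42 and 10.30, and neither was above background in pool 2. All 5 genes thus had the order pool 3, pool 1, pool 2. Of the 19 genes of the neutrophil list, 3 were above background in all pools (S100a8, S100a9 and Mmp9), or 15.8% against 41.9% of all genes. A further 3 were above background in some pools and 13 in none, Ngp and Elane among the last. Mmp9 had levels of 9.21, 9.24 and 9.18, the highest in pool 2. Of the 14 acute phase and iron handling genes above background in all pools, 7 were lowest in pool 2, against 46.6% of all genes, so the list as a whole was near that share. How far these levels follow from neutrophils in the tissue was not tested.

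Of the 10 genes of the oligodendrocyte and myelin list above background, 6 were highest in pool 3, against 41.8% of all genes. Pool 2 was highest in 3 and pool 1 in 1. With median scaling 3 were highest in pool 3, against 4.61% of all genes, 3 in pool 2 and 4 in pool 1. Relative to the shift of all genes under that scaling, 4 were highest in pool 3, against 37.1%, 5 in pool 2 and 1 in pool 1. Mbp, myelin basic protein, had levels of 11.17, 10.92 and 12.67, a range of 1.75, and pool 3 stood apart from both other pools. Mag, a myelin glycoprotein, had levels of 9.06, 8.91 and 9.78 and was not above background in pool 2, and Bcas1, a gene of newly formed oligodendrocytes, 9.81, 9.58 and 10.59. Mog, a myelin gene restricted to oligodendrocytes, was above background in no pool, at 8.23, 7.98 and 8.69. Cnp, another myelin gene, had its highest level in pool 2, at 9.55, 10.31 and 9.76. Apod, a lipid carrier of myelin and of fibroblasts, had levels of 12.59, 11.59 and 12.76, and Sncg, a synuclein, 11.30, 10.22 and 11.78. In both of these genes pool 2 was low, and pools 1 and 3 were closer to each other than to pool 2.

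**Figure D4:**
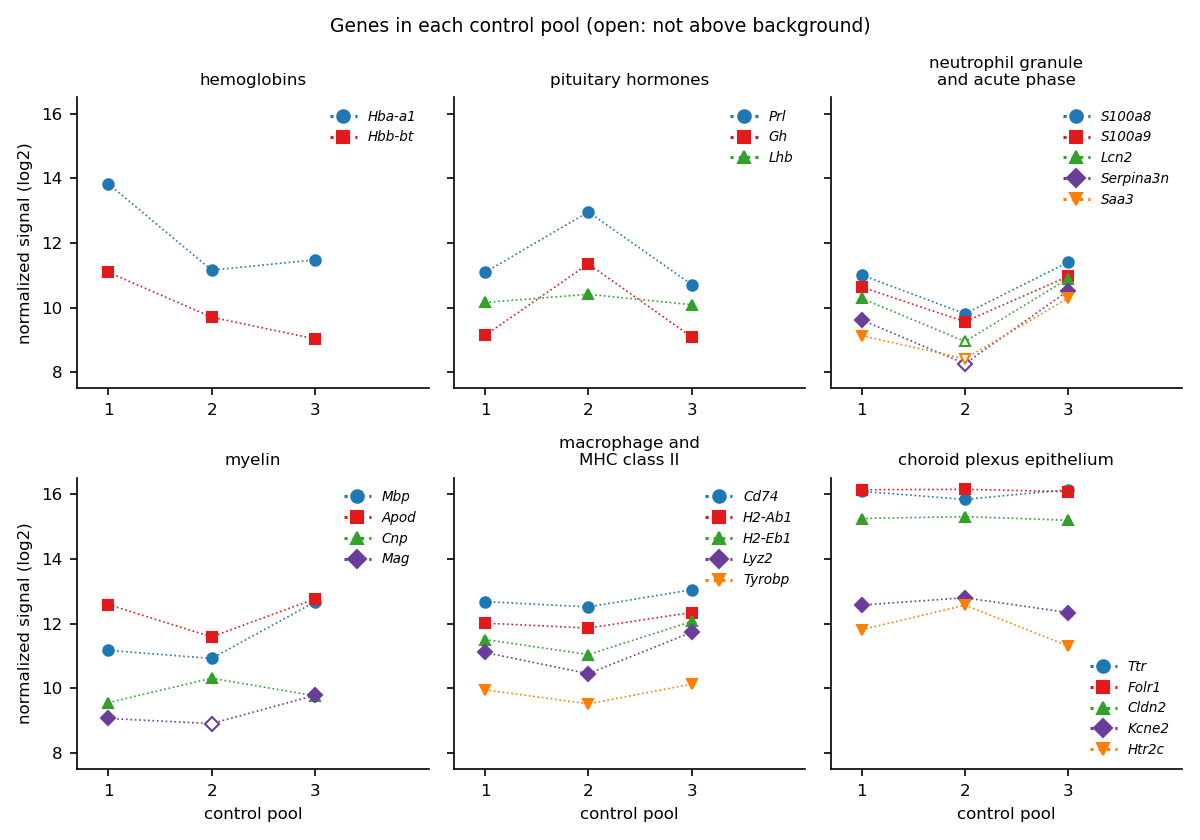
Normalized log2 signal (y axis) of genes of 6 kinds in control pools 1, 2 and 3 (x axis); dotted lines join the values of 1 gene and open symbols are not above background. Hemoglobins are highest in pool 1, Prl and Gh in pool 2, Mbp in pool 3, and S100a8, S100a9, Lcn2, Serpina3n and Saa3 are lowest in pool 2.

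Genes of antigen presentation, macrophages and complement were mostly highest in pool 3. Of the 40 genes of the macrophage, MHC class I, MHC class II and complement lists above background, which share members, 34 were highest in pool 3, against 41.8% of all genes. The median of pool 3 minus pool 2 over the 40 genes was 0.33, against 0.03 over all genes, and that of pool 3 minus pool 1 was 0.19, against 0.01. With median scaling in place of quantile normalization, 14 of the 40 were highest in pool 3, but that scaling shifted all genes above background by medians of 0.17, -0.06 and -0.10 in pools 1, 2 and 3 and left 4.61% of all genes highest in pool 3. Relative to that shift the count was again 34 of 40, against 37.1% of all genes. The differences were small beside those above. H2-Eb1, a class II beta chain, had levels of 11.51, 11.04 and 12.06, Lyz2, the lysozyme of macrophages and neutrophils, 11.11, 10.45 and 11.73, and Laptm5, a lysosomal protein of blood cells, 11.28, 10.89 and 11.83. H2-Eb1 and Lyz2 were the only ones of the 40 with a range over 1. H2-K1, at 12.32, 12.53 and 12.04, and the protease Ctss, at 11.05, 11.43 and 10.97, were highest in pool 2.

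The pan-leukocyte actin regulator Coro1a, at 10.33, 9.82 and 10.96, and the kinase Prkcb, at 9.99, 9.73 and 10.91, were also highest in pool 3. Of the endothelial genes 1 of 19 was highest in pool 2, against 37.8% of all genes, and the medians of the list were 10.45, 10.10 and 10.38. Genes of Bmp, Wnt and other growth factor signaling were highest in pool 2 in 16 of 25 cases and tight and adherens junction genes in 11 of 21, against the same 37.8%. With median scaling these 3 counts were 0, 11 and 7, beside 1120 of all 6679 genes highest in pool 2. Relative to its shift of all genes they were 1, 18 and 13, beside 2805 of the 6679. Of the ribosomal protein genes, 17, 30 and 21 of 68 were highest in pools 1, 2 and 3. For the cilia genes these counts were 10, 11 and 10 of 31. Over all genes the shares were 20.3%, 37.8% and 41.8%. Some ribosomal protein genes were near the ceiling, such as Rplp1 in 2 pools, and their highest pool cannot be read. Of the 24 CP epithelium genes, 10 were near the ceiling in at least 1 pool, where the highest pool cannot be read. Of the other 14, 10 were highest in pool 2, against 37.8% of all genes, and 4 in pool 3, against 41.8%.

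**Figure D5:**
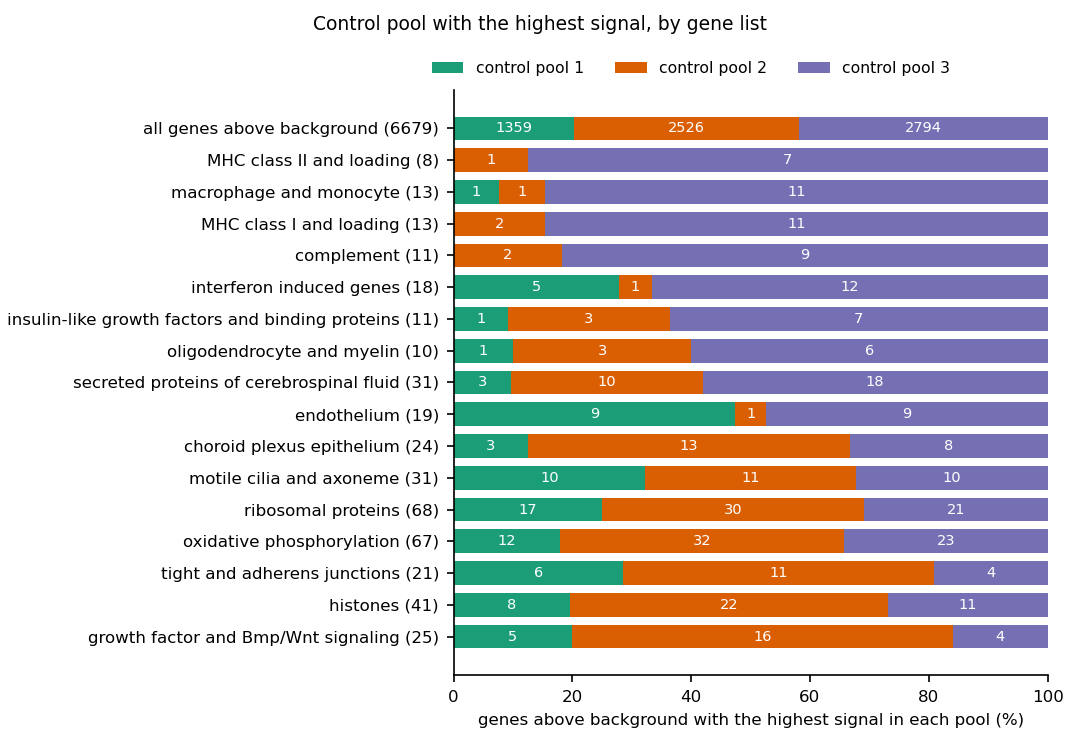
Share of genes above background with their highest normalized signal in each control pool (x axis, %), for all 6679 genes and for 16 gene lists (number of genes in brackets, counts in the bars). Genes near the ceiling are included, though their highest pool cannot be read. After quantile normalization 11 of 13 macrophage, 11 of 13 MHC class I, 7 of 8 MHC class II and 9 of 11 complement genes were highest in pool 3; with median scaling, which shifted all genes toward pool 1, 14 of these lists' 40 genes were, and 34 relative to that shift.

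Among the 875 genes above background in 1 or 2 pools, the largest range was that of Plek, which encodes pleckstrin of platelets and leukocytes. Its levels were 7.73, 10.11 and 10.18 in pools 1, 2 and 3, and pool 1 was not above background, with a detection p of 0.871. Serpina3n, Lcn2 and Saa3 followed. Crk, an adaptor protein, had levels of 9.59, 10.28 and 8.75, and Idi1, an enzyme of cholesterol synthesis, 9.41, 10.12 and 8.82. Both, like Usp46, Ubp1, Rif1 and Fam149a, which completed the 10 largest, had the order pool 2, pool 1, pool 3 that most of the 141 genes had. Fcgr3, an antibody receptor of myeloid cells outside these 10, had levels of 9.74, 9.13 and 10.38. With ranges from 1.28 to 2.45, these 10 genes were selected for their range and their low signals lay near the detection limit of each array, where the lowest signals called above background were 481, 640 and 370 raw units in pools 1, 2 and 3.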

How the data were processed

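Total RNA of CP pools from 3 mice each was amplified, labeled and hybridized to MouseRef-8 beadchips (the labels and the methods of the study name different amplification kits; which chip held which pool is not given in the sources used here). The authors deposited BeadStudio signal intensities on a linear scale, not normalized, each probe with its detection p-value, and a log2 table that they had quantile-normalized. Per the labels, limma was used. No background correction is named. The deposited columns all belong to samples of the series.

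Of 23983 probes, 5 repeat the values of another row and were left out. Log2 signals of all 11 arrays were quantile-normalized in R 4.3.3 with limma 3.58.1, and only the 3 control pools (labeled replicates 1, 2 and 3) were used after that step. The result differs from the deposited log2 table by at most 0.0888. Probes were named through the platform annotation (20917 with 1 gene, 3061 with none or several), and a gene stands by its brightest probe. Above background means a deposited detection p-value under 0.01 in all 3 pools, and the range is the highest minus the lowest pool. There are no counts, so the number of arrays limits the precision. No group was compared with another and no test was made. The lists and the pools were chosen with earlier results of these data known, and 3 of the 46 lists (ventricle regions, olfactory receptors, cholesterol and fatty acid synthesis) were added after values had been seen. Genes named are the 30 brightest, the 30 with the largest range, the 10 with the largest range among genes above background in 1 or 2 pools, up to 5 bright and 3 variable members of each list, and the markers. A gene outside this rule (as Eef1a1, Cfap69, Coro1a, Prkcb, Taf15, Bcas1, Fcgr3 and list members given as not above background) was named after its value was seen. Promoter sequences are from RefSeq, build GRCm38.p6. The calculation of ranges was tested on simulated data. Alternatives were a detection p-value under 0.05, other normalizations, the mean over all probes, other range limits and leaving out each pool.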

Additional observations from a re-analysis of the deposited data

How the results depend on the processing

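No paired analysis was possible because only 1 group was described. The count of genes above background was 6679, and 8144 at a detection p under 0.05, and between 6686 and 7164 when a pool was left out. Of the 30 brightest genes, 30 were kept with quantile normalization over the control arrays alone, with the deposited log2 table and with neqc, 23 with median scaling, 26 with the mean over all probes and 23 to 25 when a pool was left out. The count of genes with a range over 1 depended most on the choices. It was 141, and 150, 152 and 169 with control-only quantile normalization, the deposited table and median scaling, 112 with the mean over all probes, 241 with neqc, 539 at a range over 1.5-fold, 56 of the 3339 genes in the upper part of the levels, and 6 to 138 when a pool was left out (6 without pool 2). Without any normalization, an alternative chosen after seeing the data, it was 800. The 241 genes with neqc included all 141, and 209 of them were highest in pool 2, against 127 of 141. The lists with a median level above the 75th percentile numbered 12 of 46, and 12 or 13 under every alternative run. The 2 brightest probes of a gene were highest in the same pool in 418 of 865 genes, and in 418, 418 and 607 with control-only quantile normalization, neqc and median scaling, which were also chosen after seeing the data. For the 30 genes with the largest range, the range moved by less than the gene's SD over the pools under all 4 normalizations. That SD grows with the range, so the limit is loose for these genes and does not show that their ranges are stable. With neqc the range of Gh went from 2.26 to 2.97 and that of Hbb-bt from 2.06 to 2.79. Without pool 2 the range moved by more than that SD in 26 of the 30. Signals near the ceiling have no order, and dim genes may be expressed below the detection limit.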
